A study of Mus musculus with 446 samples.

Results

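The 35 genes described here encode proteins by which macrophages and related phagocytes are built and recognised. They are a list of gene symbols, drawn up with earlier results of these data known, and were matched to Ensembl identifiers: all 35 are among the 47643 genes of the liver and muscle tables, and 11 are among the 2728 genes of the adipose table. By role they are 2 lineage regulators, 5 adaptor and signalling proteins, 6 surface receptors and integrins, 4 scavenger receptors, 3 complement C1q chains, 7 lysosomal, granule and oxidase genes, 4 genes of lipid-laden macrophages and 4 genes of resident liver macrophages.

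RNA was measured by stranded total RNA sequencing in 3 tissues (abdominal adipose, liver and skeletal muscle) of male Diversity Outbred mice, a stock of animals that each mix founder genomes in a different way. They entered the study at 6 weeks of age and were housed singly. All ate a control diet with 10 kcal% fat at first. They were then randomised: 74 of the mice with data stayed on it and 75 received a high-fat diet with 60 kcal% fat, each for 14 weeks. The 446 libraries comprise 73 control and 75 high-fat adipose samples and 74 control and 75 high-fat samples of each of the other tissues. Liver and muscle of mouse 80 were left out, which leaves 74 high-fat samples in each. No allele, transgene or drug was involved, and the age at the start of the diets is not stated in the labels. Each library is 1 mouse and tissue, so the spread below is that between mice that differ in genotype.

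Macrophages arise from embryonic progenitors or blood monocytes and depend on the receptor encoded by Csf1r and the transcription factor PU.1, encoded by Spi1. In adipose tissue they gather around dying adipocytes in obesity, where they take up lipid. In liver the resident Kupffer cells line the sinusoids and clear particles from the blood, and in muscle resident macrophages sit in the connective tissue between fibres.

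Because PU.1 acts through GAGGAA-like core motifs, the promoters of genes whose levels the results turn on are shown first. RefSeq promoter windows of 300 bases (250 before the annotated start and 50 from it on, build GRCm38.p6) were found for 26 of the 35 genes. The 5 windows printed here, each 5′ to 3′ on the strand of its gene, belong to Cd68, Plek and Cybb, which rose in adipose tissue, to Cd163, which did not pass the test there, and to Ctss, which fell in liver. Capitals mark GAGGAA or its reverse complement TTCCTC, and in Ctss also TCATGTGA, a match on the other strand to the motif TCACNTGA bound by the MITF and TFE factors. The windows are chr11:69666121-69666420 (minus strand) for Cd68, chr11:17008669-17008968 (minus) for Plek, chrX:9469275-9469574 (minus) for Cybb, chr6:124304401-124304700 (plus) for Cd163 and chr3:95526536-95526835 (plus) for Ctss.
Cd68: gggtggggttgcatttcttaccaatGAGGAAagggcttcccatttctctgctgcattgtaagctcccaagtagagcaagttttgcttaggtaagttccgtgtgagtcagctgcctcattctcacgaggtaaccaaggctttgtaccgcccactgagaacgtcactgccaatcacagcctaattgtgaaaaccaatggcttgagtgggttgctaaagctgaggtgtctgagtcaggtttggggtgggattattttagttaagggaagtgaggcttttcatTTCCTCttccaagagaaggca
Plek: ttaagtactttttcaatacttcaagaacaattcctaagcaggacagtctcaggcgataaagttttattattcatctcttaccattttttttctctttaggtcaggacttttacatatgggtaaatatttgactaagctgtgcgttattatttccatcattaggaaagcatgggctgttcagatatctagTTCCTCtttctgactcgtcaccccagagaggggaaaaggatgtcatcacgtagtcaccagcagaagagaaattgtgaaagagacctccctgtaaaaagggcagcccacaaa
Cybb: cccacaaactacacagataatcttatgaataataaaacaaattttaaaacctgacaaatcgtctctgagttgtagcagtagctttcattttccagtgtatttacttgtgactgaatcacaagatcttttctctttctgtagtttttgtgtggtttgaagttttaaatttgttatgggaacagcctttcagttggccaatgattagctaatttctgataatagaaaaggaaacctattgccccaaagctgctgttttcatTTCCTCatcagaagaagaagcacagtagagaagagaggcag
Cd163: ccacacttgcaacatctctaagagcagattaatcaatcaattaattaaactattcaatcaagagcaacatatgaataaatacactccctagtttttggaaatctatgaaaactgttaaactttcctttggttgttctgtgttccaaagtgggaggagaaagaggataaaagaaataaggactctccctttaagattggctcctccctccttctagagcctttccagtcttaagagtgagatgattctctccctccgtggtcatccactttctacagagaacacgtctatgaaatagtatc
Ctss: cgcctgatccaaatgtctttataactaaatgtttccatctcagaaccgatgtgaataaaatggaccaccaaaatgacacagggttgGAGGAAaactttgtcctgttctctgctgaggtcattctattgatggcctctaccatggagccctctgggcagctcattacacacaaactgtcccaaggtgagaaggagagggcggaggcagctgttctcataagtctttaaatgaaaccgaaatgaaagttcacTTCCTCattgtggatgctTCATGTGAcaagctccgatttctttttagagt
Counted from 1 at the start site, with bases before it negative, the core motif begins at -225 and 30 in Cd68, at -61 in Plek, at 10 in Cybb and at -164 and 1 in Ctss. Searched on both strands, GAGGAA occurs in 57.14% of the 28 windows of these genes (16 of the 26 genes) and in 28.28% of all 32851 RefSeq windows of the same length. TCACNTGA, which does not overlap the other motif, occurs in 7.14% of the genes' windows (Ctss and Lgals3) and 4.18% of all windows. Of the 9 genes that rose in adipose tissue 5 have a window, and GAGGAA is in 4 of them (Cd68, Plek, Cybb and Cd5l, not Cyba). A match describes letters in a window and was not tied to binding.

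Levels are TPM divided by a scale factor for each library, which sets a typical protein-coding gene at the same level in all libraries of a tissue. These factors ran from 0.0371 to 1.23 (adipose), from 0.00917 to 1.51 (liver) and from 0.0444 to 1.81 (muscle). Libraries with a low factor, below the median of their tissue divided by 3, numbered 11 control and 7 high-fat adipose libraries, 14 and 12 in liver and 2 and 9 in muscle. Depth is unknown, since TPM keep no read numbers. The labelled tissues carried their own markers: the summed control median was 6618 scaled TPM for the 4 adipocyte genes in the adipose table, 50890 for 8 hepatocyte genes in liver and 109300 for 8 myofibre genes in muscle. The 2 libraries of mouse 80 carried the markers of the other tissue (Alb at 151.4 in the library labelled liver, against a median of 29180 in the others, and at 47430 in the library labelled muscle). Muscle libraries with Alb or Ttr at 100 or more numbered 7 on the control and 10 on the high-fat diet, mouse 80 included, and liver libraries with Acta1 or Ckm at that level 2 and 2. In liver, 29 of the 35 genes had enough signal to be tested (a level of at least 1 in 0.7 of the smaller diet group), without Itgam, Itgax, Cd14, Marco, Trem2 and Gpnmb. In muscle 29 were tested too, without Itgax, Marco, Clec4f, Timd4, Vsig4 and Cd5l. In adipose tissue 10 of 11 were tested, without Clec4f, a Kupffer cell lectin listed at 0 in 72 of 73 control and 74 of 75 high-fat samples.

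In abdominal adipose tissue, genes of every role measured rose on the high-fat diet, except for the only scavenger receptor in the table, Cd163. Of the 10 genes tested, 9 were higher and 0 lower at an adjusted p under 0.05 (limma, adjusted over all genes tested), where 45.4% of the 2234 genes tested were called 22.8% as higher and 22.6% as lower. The median difference was 1.06 on the log2 scale over the 10 genes and -0.015 over all genes tested. Mouse by mouse the groups overlapped for every gene. In bulk tissue, more cells of a type and more RNA per cell cannot be told apart.

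Among the lysosomal and oxidase genes, Cd68, a glycoprotein of macrophage lysosomes, had the largest difference. It ranged from 19.4 through a median of 44.7 to 449.9 on the control diet and from 32.2 through 153.3 to 819.2 on the high-fat diet. The high-fat value exceeded the control median in 71 of 75 mice, and the difference was 1.56 ± 0.17 on the log2 scale (SE, limma, adjusted p = 3.63e-13). Cybb and Cyba encode the 2 membrane subunits of the phagocyte NADPH oxidase. Cybb rose from a median of 22 (10.9 to 237.8) to 48.5 (15.5 to 255.2), by 1.08 ± 0.14 (adjusted p = 2.76e-10). Cyba rose from 66 (24.8 to 381.0) to 134.6 (55.9 to 625.8), by 1.07 ± 0.13 (adjusted p = 5.85e-12). Of the 75 high-fat mice 74 lay above its control median, and no gene here had more mice on that side.

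Among surface proteins, Itgb2, the common beta chain of leukocyte integrins, went from a median of 23.9 (13.2 to 249.9) to 66.2 (12.7 to 656.7), a rise of 1.28 ± 0.16 (limma adjusted p = 6.70e-11). Adgre1, the F4/80 antigen of mouse macrophages, went from 29.1 (12.3 to 166.1) to 69.9 (19.5 to 325.6), a rise of 1.18 ± 0.15 (adjusted p = 2.40e-11). Spi1, the lineage factor, was at 16.6 (lowest 6.88) and 38.5 (lowest 11.8), 1.04 ± 0.14 higher (adjusted p = 5.18e-10). Plek, a protein kinase C substrate of platelets and leukocytes, was at 8.83 (3.40 to 49.6) and 18.6 (lowest 7.22), 1.06 ± 0.13 higher (adjusted p = 2.40e-11). For these 4 genes between 67 and 71 of the 75 high-fat mice were above the control median.

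Cd5l, a secreted protein best known from tissue macrophages of liver and spleen, rose less. Its control values ran from 0.119 through 1.24 to 9.75 and its high-fat values from 0 through 1.80 to 35.6, and 51 of 75 high-fat mice exceeded the control median (0.50 ± 0.16, limma adjusted p = 0.00578). Cd163, the haemoglobin scavenger receptor of resident macrophages, did not pass the test. Its medians were 43.1 (18.0 to 86) and 41.2 (14.5 to 110.1), and the difference was -0.13 with a 95% interval of -0.28 to 0.02 (adjusted p = 0.171). By median Cd163 had rank 4 among the 11 genes on the control diet and rank 7 on the high-fat diet. Its 90th percentile was 1.83 times its 10th on the control diet, against 3.23 to 7.96 times for the 8 genes other than Cd5l that rose.

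**Figure D1:**
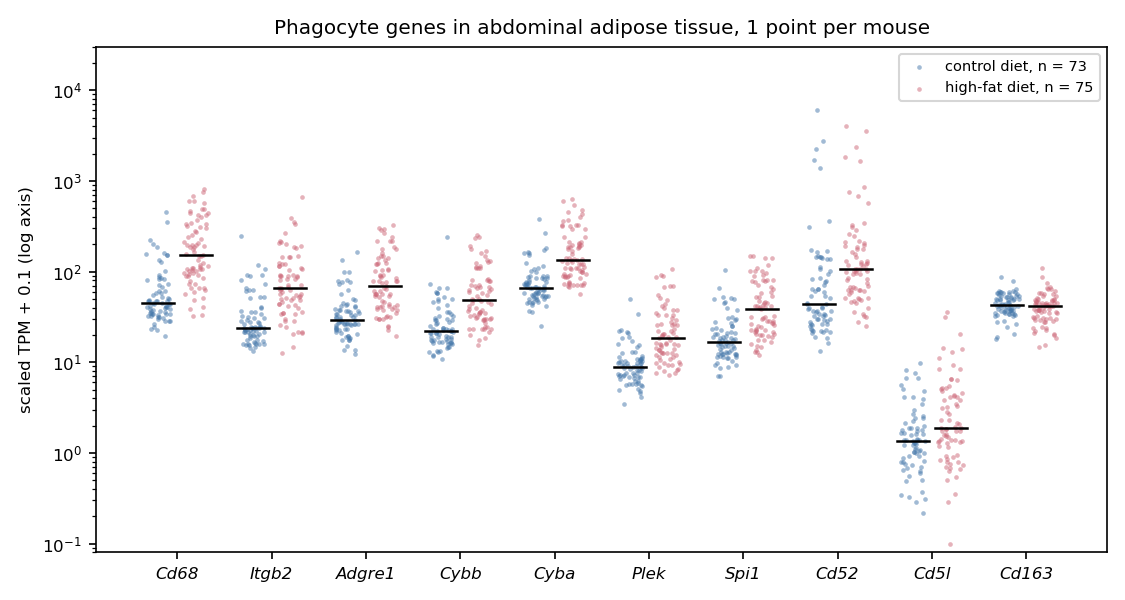
Scaled TPM plus 0.1 on a log axis for 10 genes in abdominal adipose tissue, with 1 point per mouse (73 control in blue, 75 high-fat in red) and black bars at the group medians. The high-fat median lies above the control median for all genes but Cd163, and the points of both diets overlap throughout. The 5 control and 5 high-fat points for Cd52 above 1000 stand apart from the rest.

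Cd52, a small GPI-anchored antigen of lymphocytes and myeloid cells that is also made in the epithelium of the male reproductive tract, needs separate description. It ranged from 13.1 through 43.7 to 6094 on the control diet and from 25.1 through 105.5 to 4082 on the high-fat diet (0.99 ± 0.27 higher, limma adjusted p = 0.00168). In 15 libraries (6 control, 9 high-fat), set apart after the values were seen by Fxyd4 at 20 or more or Spint4 at 1 or more, both epithelial genes, Cd52 ran from 122.4 through 1693 to 6094. In all other libraries it ran from 13.1 through 63.6 to 567.4. The same 15 had a median of 4.90 for Hoxd13, a Hox gene of the limb and urogenital region, which was at 1 or more in 12 of them and in 1 of the others. They had a median of 16.3 for Cdh1, an epithelial cadherin, against 0.17. Their Adgre1 median was 36.6, against 41.3 in the others. Without these libraries Cd52 was higher by 0.97 ± 0.17 (adjusted p = 1.0e-06) and the same number of genes, 9, was higher. Their part in the Cd52 values was not tested beyond this.

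**Figure D2:**
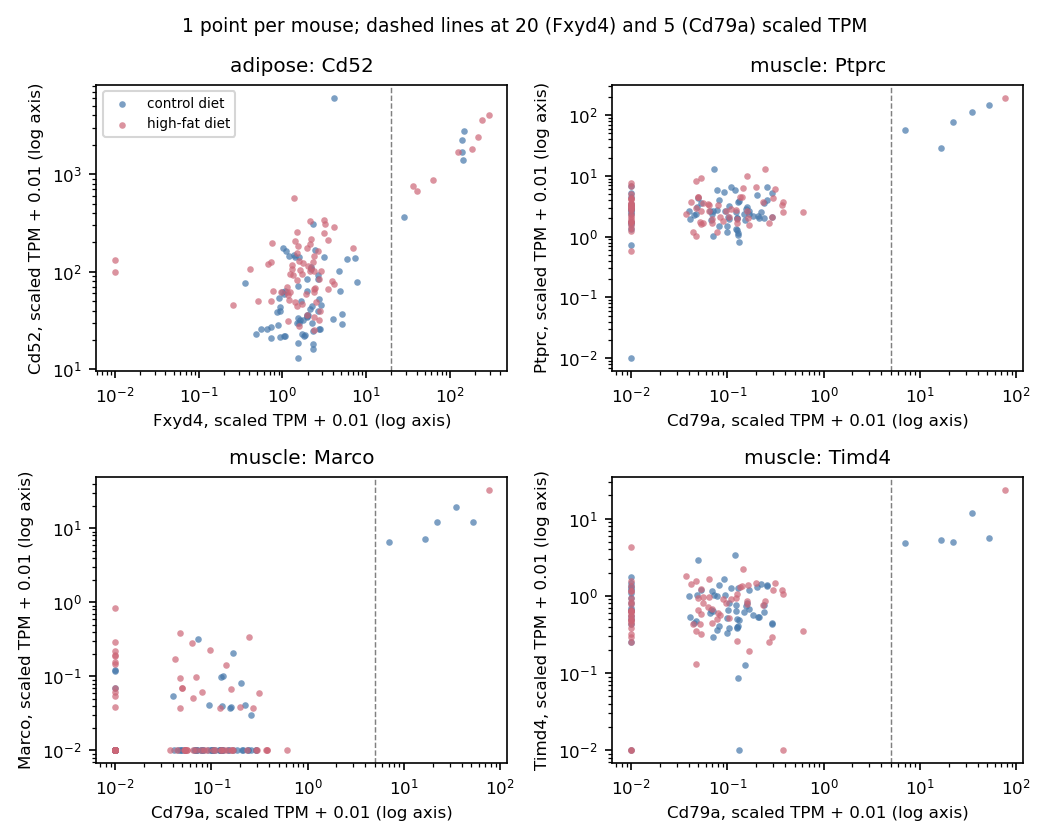
Each panel plots 1 gene of the group against a gene of another cell type in scaled TPM plus 0.01 on log axes, with 1 point per mouse, blue for control and red for high-fat. Adipose Cd52 is shown against Fxyd4 (dashed line at 20), and muscle Ptprc, Marco and Timd4 against Cd79a (dashed line at 5). The highest Cd52 values lie with high Fxyd4 except for 1 control library at 6094, and the 6 muscle libraries right of the line hold the highest values of all 3 genes.

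Markers of other cells in the same adipose libraries moved as follows. All 4 adipocyte markers in the table were lower on the high-fat diet (median -0.61), and their summed level went from a median of 6618 (2064 to 12610) to 4371 (1961 to 8983). Both fibroblast markers were higher, with Col1a1, a fibrillar collagen chain, at 0.59 ± 0.12 (limma adjusted p = 1.26e-05), and summed 924.5 (573.3 to 1859) and 1075 (622.8 to 2026). Of the T and NK cell list 0 of 3, of the B cell list 0 of 2 and of the mast cell list 0 of 2 passed the test. Their summed medians were 6.39 and 6.74, 2.46 and 2.55, and 13.3 and 15.9 on the control and high-fat diet. The only neutrophil marker in the table, Mmp9, was lower at -0.36 ± 0.15 (adjusted p = 0.0411), and 1 of 3 endothelial markers was lower. The part of these cells in the macrophage values was not tested.

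Genes of the wider phagocyte pathways, from lists drawn up by function, were mostly higher in adipose tissue. Of the 23 measured there, 21 were tested, with 13 higher and 3 lower, where 45.4% of all genes tested were called (22.8% higher, 22.6% lower). Ncf1, the cytosolic organiser of the same oxidase, was 1.03 ± 0.13 higher (limma adjusted p = 1.12e-10). All 5 leukocyte kinases, adaptors and cytoskeletal genes in the table were higher, among them Cd48, an adhesion ligand (0.92 ± 0.13, adjusted p = 9.35e-10). The Fc receptor Fcgr1 (0.56 ± 0.14), the lectin Clec10a (0.36 ± 0.09), the apoptotic cell receptor Axl (0.25 ± 0.06), the haem oxygenase Hmox1 (0.90 ± 0.12) and the chemokine Ccl3 (0.84 ± 0.15) were higher too, each with an adjusted p below that of Cd52. The 3 lower genes came from the list of lipid-associated macrophage genes, including Apoe (-0.47 ± 0.08) and Lpl (-0.40 ± 0.08), a lipoprotein component and a lipase that adipocytes also make. The growth factor Csf1 had a difference of 0.003 ± 0.06 (adjusted p = 0.974), and 0 of 2 myeloid transcription factors in the table passed.

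In liver the genes stood at other levels and in another order. On the control diet the highest medians were those of Clec4f (35.5) and Cd5l (32.2), followed by Mpeg1, a pore-forming protein of the phagosome (30.7), and C1qa (24.1), Lyz2 (21), C1qb (19.1), Spp1 (18.2), C1qc (17.8), Ctss (17.5) and the mannose receptor Mrc1 (15.7). Neighbours in this order overlapped widely: Clec4f ranged from 10.7 to 101.5, Cd5l from 4.84 to 114.5 and Mpeg1 from 7.30 to 83.9. The lowest medians were those of Gpnmb (0.056) and Trem2 (0.090), both known from lipid-laden macrophages. Lyz2 has a near-identical neighbour, Lyz1, and its level is uncertain where counting could split or share their reads.

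On the high-fat diet 3 of the 29 liver genes fell and 0 rose, where 9.76% of 12567 genes were called, 4.47% as higher and 5.29% as lower. Timd4, a phosphatidylserine receptor of resident Kupffer cells, ranged from 0.48 through 1.98 to 5.47 on the control diet and from 0 through 1.42 to 6.90 on the high-fat diet. In 23 of 74 high-fat mice it exceeded the median of the controls, and it fell by 0.29 ± 0.09 (limma adjusted p = 0.0194). Ctss, a lysosomal protease of antigen-presenting cells, went from 17.5 (4.81 to 43.3) to 13.4 (4.58 to 43.3), with 17 of 74 above the control median, and fell by 0.30 ± 0.09 (adjusted p = 0.0226). Mpeg1 went from 30.7 (7.30 to 83.9) to 26.5 (6.09 to 66), with 25 of 74 above, and fell by 0.34 ± 0.12 (adjusted p = 0.0467). The diets overlapped over most of their range for all 3. These calls were near the threshold: Timd4 missed it without the libraries of low scale factor (-0.20, adjusted p = 0.0970), Ctss with no filter on low values (adjusted p = 0.0595), Mpeg1 under 7 of the 10 alternatives run, and all 3 on TPM as deposited.

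Of the 29 differences in liver 27 were negative, with a median of -0.15 against -0.006 over all genes. Of all genes tested in liver 47.88% had a positive difference. At an unadjusted p under 0.05 there were 9 of 29 (31%), against 21.1% of all genes. Those not past the adjusted threshold were Ptprc, the pan-leukocyte phosphatase CD45 (-0.27 ± 0.10, adjusted p = 0.0577), the lysozyme Lyz2 (-0.39 ± 0.15, adjusted p = 0.0792), Cybb (-0.26, adjusted p = 0.104), the scavenger receptor Msr1 (-0.16, adjusted p = 0.150), C1qc (-0.23, adjusted p = 0.155) and Mrc1 (-0.14, adjusted p = 0.161). Of the other Kupffer cell genes, none of which passed, Clec4f had a difference of -0.01 (95% interval -0.16 to 0.14), Cd5l -0.04 (-0.23 to 0.16) and Vsig4, a complement receptor, -0.10 (-0.32 to 0.11). Spp1, osteopontin, had the only positive difference above 0.1, at 0.19 ± 0.11 (adjusted p = 0.362). Its highest high-fat value was 275.3, against 111.1 on the control diet. A single high-fat liver library held the highest Ptprc (20.3), Cd52 (31.5) and Lyz2 (147.3) of all liver libraries and the highest Cd79a, a B cell receptor chain (6.45, against a median of 0.17). Without it Ptprc (-0.30, limma adjusted p = 0.0192) and Lyz2 (-0.43, adjusted p = 0.0334) passed as well, which makes 5 lower (all genes 569 higher and 671 lower). Scaling to the total of coding genes gave 8 lower, and moved the calls of all genes from 562 higher and 665 lower to 299 and 1117.

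**Figure D3:**
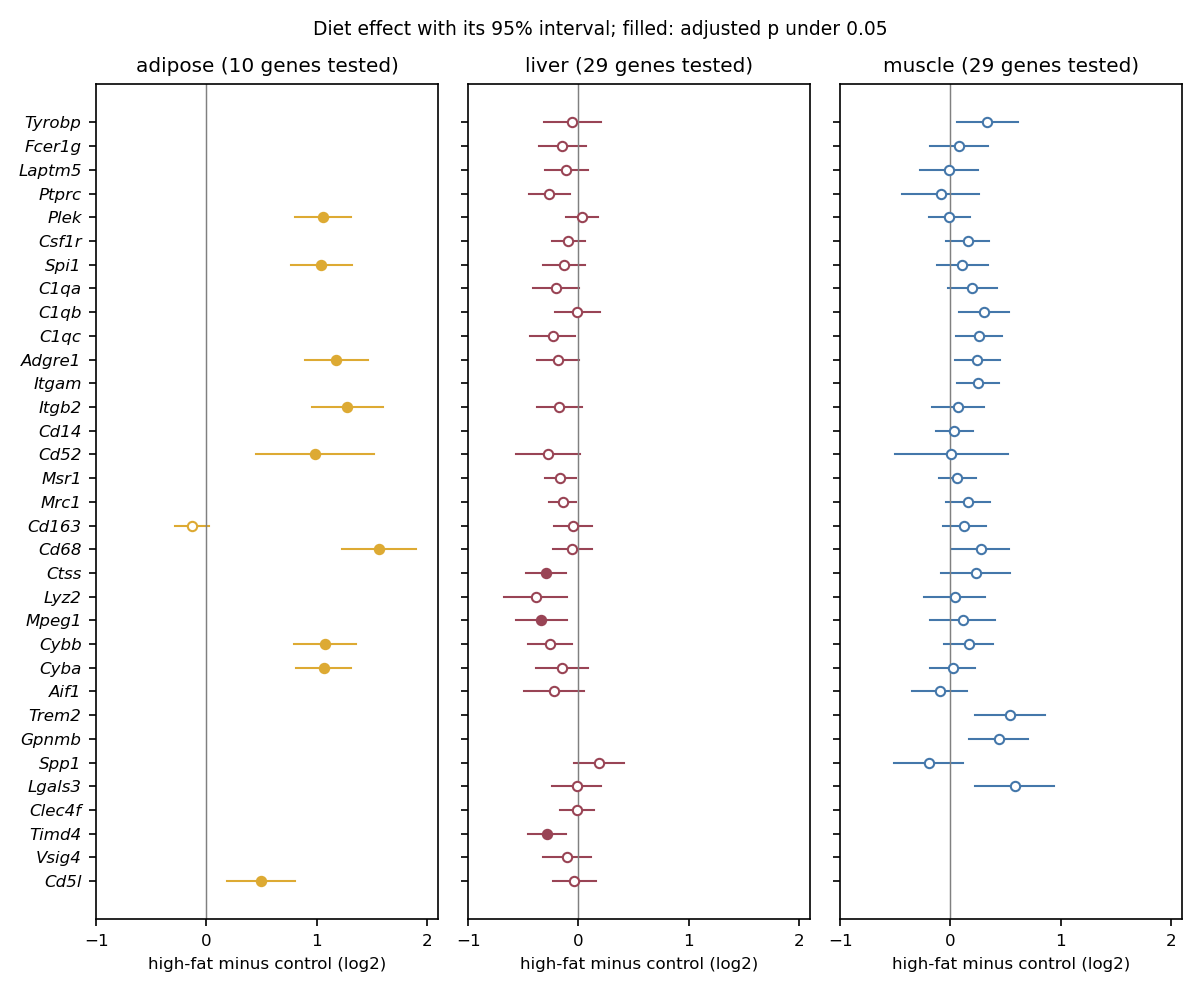
Points are the high-fat minus control difference on the log2 scale for each gene, bars are 95% intervals and filled points have an adjusted p under 0.05, with genes in order of role from top to bottom. The adipose panel holds 9 filled points right of 0, the liver panel 3 filled points left of 0 and the muscle panel none.

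Of the pathway genes, 75 were tested in liver, with 4 higher and 13 lower, where 9.76% of all genes tested were called (4.47% higher, 5.29% lower). The Fc receptors Fcgr3 (-0.33 ± 0.10, limma adjusted p = 0.0164) and Fcgr4 (-0.30 ± 0.10, adjusted p = 0.0432) were lower, as were the integrin chain Itgal (-0.30 ± 0.06, adjusted p = 0.000221), the actin-binding Coro1a (-0.36 ± 0.10, adjusted p = 0.00714) and the cytokine Il1b (-0.35 ± 0.11, adjusted p = 0.0163). The lower lipid-associated genes included Fabp5, a fatty acid binding protein (-2.41 ± 0.21), and the protease Ctsl (-0.44 ± 0.06), neither of which is particular to macrophages. The transcription factor Cebpb (0.47 ± 0.11), the fatty acid receptor Cd36 (0.43 ± 0.14) and Hmox1 (0.28 ± 0.09) were among those higher. None of 8 endothelial, 8 fibroblast and stellate cell or 2 dendritic cell markers tested passed, and of 8 hepatocyte markers 2 were higher and 4 lower. The summed hepatocyte level was 50890 (35240 to 88540) on the control and 46440 (29110 to 71740) on the high-fat diet, and its part in the macrophage values was not tested.

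In muscle the highest control medians were those of Lyz2 (55.6), C1qa (24.2), C1qc (15.6), C1qb (14.9), Csf1r (10.8) and Mrc1 (9.80). The Kupffer cell genes were low: Clec4f was listed at 0 in 53 of 74 control samples, Cd5l in 34, and the medians of Vsig4 and Timd4 were 0.34 and 0.68. Marco, a scavenger receptor of marginal zone and alveolar macrophages, was listed at 0 in 54.

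None of the 29 genes tested in muscle passed the threshold for diet, where 1.59% of 13584 genes were called (1.02% higher, 0.567% lower). At an unadjusted p under 0.05 there were 9 (31%, against 12.5% of all genes and 6.36% with a higher level), all with a positive difference. Of the 29 differences 24 were positive (median 0.13 against -0.005), where 47.15% of all genes had a positive difference. Within the group, 3 of the 4 genes of lipid-laden macrophages had the largest differences. Lgals3, a galectin, ranged from 2.62 through 6.59 to 90.3 on the control and from 2.98 through 9.14 to 189.3 on the high-fat diet (0.58 ± 0.18, limma adjusted p = 0.0801). Trem2, a lipid-sensing receptor, ranged from 0 through 0.98 to 27.2 and from 0 through 1.56 to 31.7 (0.54 ± 0.16, adjusted p = 0.0613). Gpnmb, a lysosomal glycoprotein, ranged from 0 through 2.19 to 9.54 and from 0 through 2.65 to 47.7 (0.44 ± 0.14, adjusted p = 0.0801). The fourth gene of this role, Spp1, had a difference of -0.20 ± 0.16 (adjusted p = 0.662). Between 45 and 48 of the 74 high-fat mice were above the control median for the first 3. The complement chains C1qb (0.30, adjusted p = 0.207) and C1qc (0.26, adjusted p = 0.273), the integrin Itgam (0.25, adjusted p = 0.227), Adgre1 (0.25, adjusted p = 0.276), the adaptor Tyrobp (0.34, adjusted p = 0.279) and Cd68 (0.28, adjusted p = 0.354) followed. Of the 73 pathway genes tested, 1 was higher, Cd36 (0.38 ± 0.08, adjusted p = 0.00274), which muscle fibres and endothelium also make, and 0 were lower. The list of lipid-associated macrophage genes, with 14 tested and 0 called, had a median of 0.019 against -0.005 over all genes. Its gene with the smallest p, Abca1, was at -0.22 ± 0.08 (limma adjusted p = 0.153).

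In muscle, 6 libraries (5 control, 1 high-fat) stood apart by Cd79a at 7.08 to 76.3, against at most 0.601 in the others. In them Ptprc ranged from 29.2 to 194.9 (others 0 to 13.2), Marco from 6.59 to 33.1 (others up to 0.836, median 0) and Timd4 from 4.85 to 23.6 (others up to 4.25). For these 3 of the 35 genes the 6 libraries did not overlap the others. The share of all genes for which this holds is not given here. Cd52 (59.8 to 281.3, median 125.4), Lyz2 (92.8 to 291.7) and Ctss (30.7 to 106.5) were high in them as well but reached 783.5, 385.0 and 87.8 elsewhere, while Adgre1 (2.78 to 6.45) lay within the others' range (up to 24.3). Without these libraries, a choice made after seeing the data, Lgals3 (0.63 ± 0.19, limma adjusted p = 0.0430) and Trem2 (0.55 ± 0.17, adjusted p = 0.0460) passed the threshold for diet, and Laptm5, Ptprc, Plek and Aif1 changed sign to positive. Gpnmb still did not pass (adjusted p = 0.0949). On TPM as deposited the median of all genes in muscle shifts by -0.15 and 11 of the genes change sign, while Lgals3, Trem2 and Gpnmb stay positive.

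Between tissues, levels were compared on control diet after scaling both tissues together. Liver against muscle, 21 of 33 genes tested were higher in liver and 7 lower, where 88.4% of 14824 genes were called (43% higher, 45.5% lower). Of the Kupffer cell genes, the jointly scaled medians in liver and muscle were 39.8 and 0 for Clec4f, 36.4 and 0.021 for Cd5l (5.10 ± 0.08 on the log2 scale), 13.1 and 0.27 for Vsig4 (3.25 ± 0.09) and 2.24 and 0.55 for Timd4 (0.89 ± 0.09). Mpeg1 was at 33.9 and 1.67 (3.66 ± 0.13), Msr1 at 10.0 and 0.69 (2.55 ± 0.08) and Spp1 at 20.2 and 3.01 (2.18 ± 0.13). On this scale, where 1 is added to each level, the difference of Mpeg1 was above those of Vsig4 and Timd4. By the ratio of the medians, Vsig4 differed more than Mpeg1. Higher in muscle were Gpnmb (0.063 in liver and 1.75 in muscle, -1.28 ± 0.10), Lgals3 (2.45 and 5.28, -1.10 ± 0.15), Lyz2 (23.6 and 44.5, -0.88 ± 0.14), Itgam (0.36 and 1.37, -0.80 ± 0.08), Trem2 (0.10 and 0.78, -0.71 ± 0.11), Cyba (-0.39 ± 0.11) and the lipopolysaccharide co-receptor Cd14 (-0.28 ± 0.08). The largest limma adjusted p among these 28 genes was 0.00350, for Itgb2. Cd163, Cd52, Cd68, Laptm5 (adjusted p = 0.0547) and Plek (adjusted p = 0.0593) did not pass. With each tissue scaled on its own the median of all genes shifts from -0.03 to -0.41, and Laptm5, Csf1r, Itgb2 and Cd52 turn negative. Cd68 (-0.42), Cd163 (-0.45) and Plek (-0.42) then pass as lower in liver, and C1qa, C1qc, Fcer1g, Ptprc and Spi1 no longer pass as higher.

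**Figure D4:**
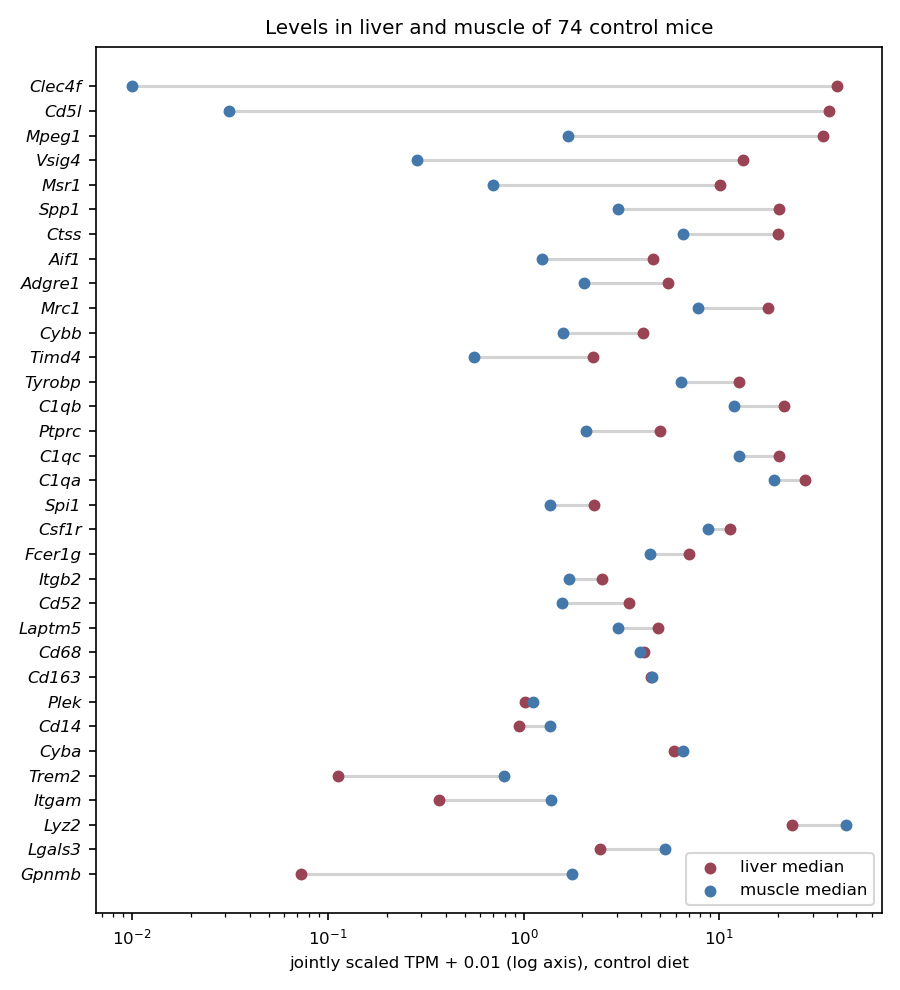
Medians of jointly scaled TPM plus 0.01 on a log axis in liver (dark red) and muscle (blue) of 74 control mice for 33 genes, ordered by the liver minus muscle difference. By that difference, taken on log2 levels after adding 1, Clec4f, Cd5l and Mpeg1 are at the top and Gpnmb, Lgals3 and Lyz2 at the bottom. The plotted distances between medians can follow another order. Those of Vsig4 (13.13 in liver and 0.27 in muscle) lie farther apart than those of Mpeg1 (33.95 and 1.67).

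Adipose tissue held the highest control levels of most genes in its table. Liver against adipose, 9 of 11 were lower in liver (88.8% of 2127 genes called, 38.3% higher and 50.5% lower): Cd52 (-2.57), Cyba (-2.09), Cd68 (-2.09), Itgb2 (-1.70), Cd163 (-1.58), Spi1 (-1.20), Plek (-1.13), Adgre1 (-1.02) and Cybb (-0.89). Higher in liver were Cd5l (jointly scaled medians 38.3 and 0.47, difference 4.60 ± 0.11) and Clec4f (42.9, listed at 0 in adipose tissue). Muscle against adipose, all 9 genes tested were lower in muscle (92.9% of 2175 genes called, 51.1% lower), from Cd52 (-2.87), Adgre1 (-2.05) and Itgb2 (-2.02) to Plek (-0.95). With each tissue scaled on its own the medians of all genes move to -1.62 and -1.28, and the direction of every one of these 20 differences stayed.

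Diet effects were then compared between tissues within joint fits; the comparisons with adipose tissue share the adipose libraries. The effect was lower in liver than in adipose tissue for 9 of 11 genes (26.3% of genes called, 15.9% lower), most for Cd68 (-1.60 ± 0.20, limma adjusted p = 1.91e-12) and Itgb2 (-1.42 ± 0.19, adjusted p = 2.18e-10) and least for Cd5l (-0.40 ± 0.15, adjusted p = 0.0336). It was lower in muscle than in adipose tissue for 8 of 9 (23.1% of genes called, 12.8% lower), again most for Cd68 (-1.27 ± 0.22, adjusted p = 1.35e-06). Cd163 did not pass in either, at 0.06 ± 0.12 (adjusted p = 0.743) and 0.25 ± 0.13 (adjusted p = 0.162). Between liver and muscle 1 of 33 genes passed (3.73% of genes called, 1.22% higher and 2.51% lower): C1qc, a chain of the first complement component, with a difference of -0.49 ± 0.15 (adjusted p = 0.0352). Its medians were 17.8 and 15.5 on the control and high-fat diet in liver and 15.6 and 19.3 in muscle. With mouse as a replicate block 3 genes passed, C1qc (adjusted p = 0.0240), Adgre1 (-0.42, adjusted p = 0.0307) and Ctss (-0.53, adjusted p = 0.0461). Over all genes 215 were then higher and 404 lower. With a pseudocount of 0.1 none of the group passed (C1qc -0.56, adjusted p = 0.0692). At an unadjusted p under 0.05 there were 17 of 33, for which the share of all genes is not given here. Of the 33 differences 31 were negative (median -0.25 against -0.01 over all genes), where 46.73% of all genes had a positive difference.

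Within a tissue, the genes varied together among mice on the same diet. Adgre1 served as the index gene in adipose tissue and Csf1r in liver and muscle, with diet in the model, and r is Pearson's correlation of diet-centred log2 levels over 73 control and 75 high-fat mice in adipose tissue and 74 of each in liver and muscle. In adipose tissue 8 of 9 genes passed, where 63.4% of 2233 genes were related to Adgre1 (28.5% positively). Cd68 (r = 0.94), Itgb2 (0.91), Plek (0.90), Spi1 (0.90), Cybb (0.89) and Cyba (0.86) were close to it, with Spearman's rho from 0.80 to 0.92. All of their permutation p-values were 1e-05, the smallest 100000 permutations can give, and r without the 2 farthest mice was 0.85 to 0.93. Cd5l was less related (r = 0.33, permutation p = 0.00014; rho = 0.26, p = 0.00238; 0.30 without the 2 farthest; limma adjusted p = 9.76e-05), at 0.12 in control and 0.43 in high-fat mice. Cd163 did not pass (r = 0.092, permutation p = 0.287; rho = 0.12, p = 0.141; 0.11 without the 2 farthest; adjusted p = 0.326), at 0.30 in control and -0.024 in high-fat mice. Whether these within-diet values differ was not tested. Cd52 had r = 0.34, and 0.80 without the 15 libraries with Fxyd4 or Spint4.

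Adipose Cd5l was related to a B cell gene as well. Its diet-centred level was related to that of Cd79a (r = 0.41, permutation p = 1e-05; rho = 0.34, p = 2e-05; limma adjusted p = 4.99e-05), with r = 0.36 without the 2 farthest mice, where 2.46% of 2233 genes were called. No other gene of the 10 passed (adjusted p of 0.257 or more). In the 13 adipose libraries with Cd79a at 5 or more (5 control, 8 high-fat) the Cd5l median was 7.52 (0.628 to 31.6), against 1.31 (0 to 35.6) in the rest.

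In liver 27 of 28 genes were positively related to Csf1r, where 17.9% of 12566 genes were called (15.5% positively). The closest were C1qb (r = 0.79), C1qc (0.76), Cd5l (0.76), Adgre1 (0.75), Vsig4 (0.74), Tyrobp (0.72) and Clec4f (0.70). Timd4, the fourth Kupffer cell gene, was at 0.44. The lowest that passed were Mpeg1 (0.33), Plek (0.31, and 0.21 without the 2 farthest mice) and Cybb (0.30, and 0.52 without the 2 farthest mice). Spp1 did not pass (0.087, permutation p = 0.290; rho = 0.071, p = 0.391; limma adjusted p = 0.481). In muscle 27 of 28 passed (51.9% of 13583 genes called, 25.1% positively), led by Mrc1 (0.91), C1qb (0.91), C1qc (0.91), C1qa (0.90), Lyz2 (0.85) and Cd163 (0.84). Spp1 was again the exception (-0.046, permutation p = 0.576; rho = -0.053, p = 0.524; adjusted p = 0.664). All points in a panel share libraries, and on TPM as deposited, where the library's scale adds to every gene, r was higher for each of these genes. Cd163 was thus close to Csf1r in muscle and did not pass for Adgre1 in adipose tissue. The index genes differ, so these values do not compare the tissues, and the difference was not tested.

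**Figure D5:**
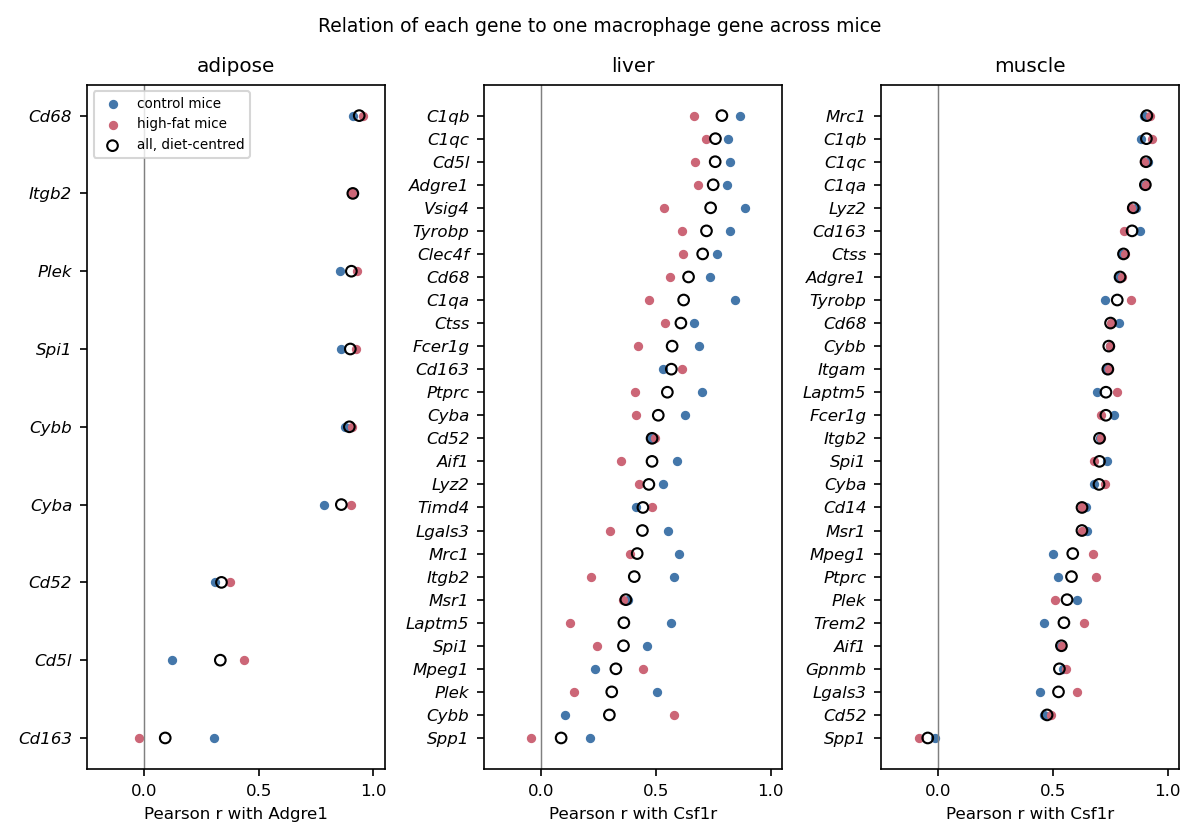
Pearson's r of each gene with Adgre1 in adipose tissue and with Csf1r in liver and muscle, for control mice (blue), high-fat mice (red) and all mice after centring on the diet means (open circles). Most open circles lie above 0.85 in adipose tissue, between 0.30 and 0.79 in liver and above 0.47 in muscle, with Cd163 in adipose tissue and Spp1 in liver and muscle near 0.

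Between tissues of the same mouse the levels were little related. After removal of the diet means, 1 of 25 genes tested in both liver and muscle passed, where 9.79% of 11113 genes were positively related. This was Mpeg1 (r = 0.27, permutation p = 0.00082; rho = 0.36, p = 4e-05; adjusted p = 0.0101; 0.27 without the 2 farthest mice), at 0.25 in control and 0.30 in high-fat mice, and the median r was 0.090 over the 25 genes and 0.049 over all. Without the libraries of low scale factor these medians were 0.17 and 0.068. Cyba (r = 0.28, normal-theory Pearson adjusted p = 0.0253) then passed beside Mpeg1, where 1470 of the 11113 genes were positively related. Between liver and adipose tissue 0 of 10 passed (5.79% of 1797 genes positive), with Cd163 highest at r = 0.19 (permutation p = 0.0253; rho = 0.22, p = 0.00574; adjusted p = 0.195). Between muscle and adipose tissue 1 of 9 passed (11.8% of 1938 genes positive), Cybb with r = 0.23 (permutation p = 0.00595; rho = 0.24, p = 0.00314; adjusted p = 0.0442; 0.24 without the 2 farthest mice). The median r was 0.14 over the 9 genes and 0.075 over all. Cybb no longer passed there without the libraries of low scale factor (r = 0.18, adjusted p = 0.205), without libraries with genes of another tissue (r = 0.20, adjusted p = 0.143), or in control (r = 0.32, adjusted p = 0.0961) or high-fat mice alone (r = 0.17, adjusted p = 0.431). Cd52 (r = 0.22, adjusted p = 0.0612) passed in the first 2 of these settings (adjusted p = 0.0326 and 0.0420). Without the 2 farthest mice its r was 0.052 (adjusted p = 0.768). Cd163 passed in high-fat mice alone (r = 0.38, adjusted p = 0.0178), with r = 0.019 in control mice. Cd68 and Adgre1 had r of 0.013 and 0.038 with liver and 0.13 and 0.14 with muscle.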

How the data were processed

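The deposited values are TPM, although the tables are named as counts: over 47643 genes a liver or muscle column adds up to 100.0% of the total that TPM must have. The adipose table holds 2728 complete genes, a median of 15.0% of that total per library (0.524% to 16.9%), and 1 incomplete line was left out, so other genes of adipose tissue were not analysed here. Per the submitters' processing notes, FastQC, Trim Galore 0.4.4 and Bowtie 1.2.2 were used. Which quantifier, build and gene annotation were used is not given in the sources used here. Per the labels' protocols, RNA came from 10 mg of liver, 20 mg of muscle or 60 mg of adipose tissue, with a quality number of at least 8 (liver and muscle) or 7 (adipose), and was sequenced on a MiSeq. TPM carry no read numbers, which leaves depth unknown and allows no counting interval.

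Gene identifiers were matched to GENCODE M21 symbols (99.927% in adipose tissue, 99.121% in liver and muscle). The scale factor of a library was a trimmed mean, without weights, of its log ratios to the tissue's median profile over nuclear genes that code for proteins, without Lars2, trimming 0.3 of the ratios and 0.05 of the levels at each end, and tissue pairs were scaled jointly. Tested genes had a scaled TPM of 1 or more in a share of 0.7 of the smaller diet group. limma 3.58.1 in R 4.3.3 (lmFit, then eBayes with trend and robust options) was run on log2(scaled TPM + 1), with two-sided p-values adjusted by Benjamini-Hochberg over all genes tested and a threshold of 0.05. Differences are on this scale, which understates the change of low genes, and errors are SE unless stated. Relations were measured on diet-centred values by Pearson's r and by Spearman's rho, with 100000 permutations within diet, two-sided. For relations between tissues a normal-theory Pearson p was adjusted over all genes tested in both. They covered 25, 10 and 9 genes between tissues and 9, 28 and 28 within tissues.

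Samples were grouped by tissue and diet from the labels. The labels give same-numbered samples of a mouse in each tissue. This pairing was looked at on the 150 genes with the highest correlation between same-numbered samples. On them the liver sample of 143 of 149 mice correlated best with the same-numbered muscle sample. For adipose tissue this held with liver in 122 and with muscle in 121 of 148 mice. These genes were picked by the labelled pairing, so the counts favour it and are no test of it. Over all genes tested in both liver and muscle, the median correlation was 0.108 for same-numbered samples and -0.0017 for other pairs. Mouse 37 was not analysed here, nor was adipose tissue of mouse 24, and liver and muscle of mouse 80 were used in an alternative only. Every gene of the group may be named. Full statistics are given for those past the threshold in a tissue and, for each tissue comparison or relation, for up to 6 with the smallest p in each direction, and for up to 2 genes per pathway list and tissue. Some pathway genes that this rule names are not reported here. The genes and lists were chosen with earlier results of these data known. The fits were tested on simulated data. Python 3.11.15 with numpy 2.4.6, scipy 1.17.1, pandas 2.3.3 and matplotlib 3.10.9 was used. Alternatives were TPM as deposited, another pseudocount (0.1), no filter on low values, scaling to the total of coding genes, scaling each tissue on its own, the replicate block, mouse 80 included, and leaving out libraries with a low scale factor, a second number or from mice that did not match. Libraries with genes of another tissue, with Cd79a at 5 or more, or with Fxyd4 or Spint4 were left out in alternatives chosen after seeing the data.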

Additional observations from a re-analysis of the deposited data

Results flagged for a closer look

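The values below are differences in the diet effect between tissues (the first tissue's high-fat minus control difference less that of the second, log2 scale) that passed limma's test of the interaction at an adjusted p under 0.05. Between liver and adipose tissue they were -1.60 for Cd68, -1.42 for Itgb2, -1.34 for Adgre1, -1.30 for Cybb, -1.25 for Cd52, -1.21 for Cyba, -1.13 for Spi1, -0.93 for Plek and -0.40 for Cd5l. All 9 genes rose in adipose tissue and none of them passed the test for diet in liver. Between muscle and adipose tissue the values were -1.27 for Cd68, -1.19 for Itgb2, -1.04 for Cyba, -1.01 for Plek, -0.97 for Cd52, -0.91 for Adgre1, -0.89 for Spi1 and -0.88 for Cybb. The value for Cd52 was the closest to the threshold (adjusted p = 0.0494) and missed it with a pseudocount of 0.1 (-1.02, adjusted p = 0.0835) and when libraries with a low scale factor were left out (-0.86, adjusted p = 0.133). Both sets share the adipose libraries and are not independent of each other.

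Between liver and muscle the value for C1qc was -0.49, with a negative difference in liver and a positive one in muscle, neither of which passed the test for diet within its tissue.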

How the results depend on the processing

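In adipose tissue the same 9 genes of the group were higher under each of the 7 alternatives run, and the single direction that turned was that of Cd163 on TPM as deposited (0.11). Calls over all adipose genes were then 303 higher and 18 lower, against 509 and 506, with the median of all genes at 0.20. Depth is unknown, so what it limits cannot be given.

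In liver the number lower (3) became 0 on TPM as deposited (all genes 11 higher and 52 lower) and 1 with no filter (450 and 546). It became 5 without the library with Cd79a (all genes 569 higher and 671 lower) and 8 with coding totals (299 and 1117). Without libraries of low scale factor 961 genes were higher and 986 lower, and 4 of the group were lower (Ctss, Mrc1, Msr1, Ptprc). Directions turned for Plek (-0.024 on TPM as deposited, -0.0084 without low-factor libraries), C1qb (0.033 with a pseudocount of 0.1), Cd163 (0.012 without low-factor libraries), Lgals3 (0.035 without low-factor libraries, 0.059 without mismatched mice, 0.019 with mouse 80, 0.013 without second-numbered libraries) and Clec4f (0.0039 without mismatched mice).

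In muscle, TPM as deposited gave 5 genes higher and 10 lower, no filter 81 and 36, coding totals 276 and 32, mouse 80 included 88 higher, and leaving out libraries with genes of another tissue 68 and 46. Without the libraries with Cd79a 205 genes were higher and 140 lower, and 2 of the group were higher. On TPM as deposited Fcer1g (-0.034), Csf1r (-0.029), Itgb2 (-0.039), Cd14 (-0.038), Cd52 (-0.086), Msr1 (-0.0024), Mrc1 (-0.013), Cd163 (-0.029), Lyz2 (-0.17), Mpeg1 (-0.034) and Cyba (-0.12) turned negative. Without the libraries with Cd79a Laptm5 (0.12), Ptprc (0.13), Plek (0.058) and Aif1 (0.0032) turned positive, as did Laptm5 (0.023) and Plek (0.011) with coding totals and Plek (0.0061) without libraries with genes of another tissue, where Cd14 was at -0.023. Without mismatched mice Cd14 (-0.0056) and Cd52 (-0.036) were negative, and so was Cd52 (-0.0081) with a pseudocount of 0.1.

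Scaling each tissue on its own turned Laptm5 (-0.16), Csf1r (-0.013), Itgb2 (-0.00049) and Cd52 (-0.030) between liver and muscle, and moved the calls to 183 higher and 1907 lower between liver and adipose tissue and to 263 and 1846 between muscle and adipose tissue. Leaving out low-factor libraries turned Cd68 (0.0055) between liver and muscle. For the difference of diet effects between liver and muscle, 3 of the group passed with the replicate block (pairing by mouse), 0 with a pseudocount of 0.1 (all genes about 1.0e+02 higher and 222 lower) and 2 without low-factor libraries (all genes 386 higher, Plek at -0.0015). The block changed no other call of the group. Cd163 between liver and adipose tissue turned to -0.0047 with a pseudocount of 0.1. None of the values that turned passed the test. Between liver and muscle of the same mouse, 2 genes passed without low-factor libraries (Mpeg1 and Cyba, with 1470 of 11113 genes positive). In each diet alone 0 passed (715 genes positive in control and 656 in high-fat mice). Between liver and adipose tissue 1 passed without the 2 farthest mice, and between muscle and adipose tissue 0 in control mice alone and 2 without the libraries with Cd79a. The cause of these shifts was not tested.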
